A study of Mus musculus with 78 samples.

Results

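Prph and 8 genes of the neural lineage were followed in mouse embryonic stem cells that lose the transcription factor ZFP143. The set holds Prph, Cdh4, Pax6, Sox1, Nes, Neurog2, Tubb3, Map2 and Ncam1, which are 9 of the 55401 genes in each count table. Prph and Cdh4 were chosen by their RNA-seq values in the depletion time course, where they were far above control at 48 and 72 h, so their values there are given as a description without a test. The other 7 genes were listed for their known roles, with earlier results of these data known.

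The cells were E14TG2a mouse embryonic stem cells of 1 clonal line (genotype ZFP143-FKBP), in which both copies of Zfp143 carry a degradation tag, so that the ligand dTAG-V1 removes the ZFP143 protein. All groups, controls included, carried this tag, and all were grown in medium with LIF and inhibitors of MEK and GSK3. New transcription was measured by TT-seq, which labels RNA with 4-thiouridine for 10 min, in DMSO and after 2, 6 and 24 h in 500 nM dTAG-V1. Polyadenylated RNA was measured by RNA-seq in DMSO and after 24, 48 and 72 h in dTAG-V1, and in a separate experiment with retinoic acid (RA). In the RA experiment, cells were treated for 24 h with DMSO or dTAG-V1 and were either collected or washed and given 1 µM RA for a further 24 h, with DMSO or dTAG-V1 kept on. The dTAG-V1 libraries with RA had therefore been depleted for 48 h and those without RA for 24 h. RA came with a change of medium that removed LIF and the inhibitors. As every library in the new medium also had RA, the effects of RA and of the medium cannot be told apart. Each group held 2 biological replicates. The p-values rest on the spread between replicate libraries, estimated over the 4 groups of a table together. With 1 clonal line they do not cover variation between clones.

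Neural commitment of embryonic stem cells runs through progenitors that carry the transcription factors SOX1 and PAX6 and the intermediate filament nestin (Nes). Neurogenin 2 (Neurog2) then starts neuronal differentiation, and neurons assemble microtubules from βIII-tubulin (Tubb3) with the associated protein MAP2 and carry the adhesion protein NCAM1. Peripherin (Prph) is an intermediate filament of peripheral neurons, and R-cadherin (Cdh4) is an adhesion protein of the developing retina and brain. RA is used in culture to drive stem cells toward neural fates, and its receptors switch on genes such as Cyp26a1, which codes for an RA-degrading enzyme.

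The sequences of the Prph and Pax6 loci are shown because Prph had the greatest RNA increase of the set without RA and Pax6 was the only gene of the 9 with a ZFP143 peak near one of its transcript starts. Prph lies at chr15:99055174-99058978 on the plus strand of mm10 (GENCODE vM21). Its RefSeq promoter sequence (GRCm38.p6, chr15:99054924-99055173, plus strand), 250 bases that end at the base before the start, holds the letters TATAAA, in capitals, with the first T 31 bases before the start. A CTCF peak lies in an intron of the gene, 0.584 kb downstream of the nearest annotated start, at chr15:99056461-99056647. In the 200 bases around its centre (chr15:99056455-99056654, plus strand) the capitals mark a match, on the minus strand, to AGGNGGC, a part of the CTCF motif.
Prph promoter: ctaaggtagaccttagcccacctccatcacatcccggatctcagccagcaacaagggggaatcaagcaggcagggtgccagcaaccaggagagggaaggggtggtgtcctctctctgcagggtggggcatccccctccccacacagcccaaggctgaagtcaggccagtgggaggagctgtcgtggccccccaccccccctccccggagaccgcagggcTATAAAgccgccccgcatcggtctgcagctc
Prph CTCF peak: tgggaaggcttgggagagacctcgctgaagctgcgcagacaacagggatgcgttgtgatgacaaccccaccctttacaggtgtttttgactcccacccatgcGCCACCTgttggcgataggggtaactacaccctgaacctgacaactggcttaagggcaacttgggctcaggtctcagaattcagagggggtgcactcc

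Pax6 lies at chr2:105668900-105697364 on the plus strand and has 24 annotated transcript starts. Its promoter sequence (chr2:105668646-105668895, plus strand) covers 250 bases before the upstream RefSeq start. The ZFP143 peak, at chr2:105677829-105678160, lies within the gene, overlaps no exon and is 0.397 kb upstream of the nearest start, an internal one. The 300 bases around its centre (chr2:105677845-105678144, plus strand) hold no ACTACAA, a part of the ZFP143 motif, on either strand, so nothing is in capitals.
Pax6 promoter: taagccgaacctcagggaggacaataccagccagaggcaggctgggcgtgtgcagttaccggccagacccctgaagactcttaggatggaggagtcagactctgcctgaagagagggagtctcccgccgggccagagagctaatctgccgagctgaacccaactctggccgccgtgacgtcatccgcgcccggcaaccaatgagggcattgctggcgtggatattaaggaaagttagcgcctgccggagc
Pax6 ZFP143 peak: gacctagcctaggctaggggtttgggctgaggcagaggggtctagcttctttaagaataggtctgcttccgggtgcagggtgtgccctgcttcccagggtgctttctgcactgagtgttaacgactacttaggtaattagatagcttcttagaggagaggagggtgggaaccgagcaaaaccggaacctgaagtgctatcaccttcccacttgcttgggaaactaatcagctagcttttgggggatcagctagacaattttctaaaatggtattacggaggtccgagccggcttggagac

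RefSeq promoter sequences were found for 7 of the 9 genes, all except Cdh4 and Ncam1. Of the 7, Prph was the one with TATAAA in the 250 bases, which either strand of 12.4% of the 32851 RefSeq promoters held. The GC content was 65.2% for Prph and 60.8% for Pax6, against a median of 52.4%; a second Pax6 promoter in RefSeq, at chr2:105682213-105682462, had 47.6%. The Pax6 promoter shown held 15 CpG and the Prph promoter 7, against a median of 6. AGGTCA, the half-site of nuclear receptors, was found in 14.0% of promoters and in none of those of the 7 genes. AGGNGGC was found on either strand in 41.3% of the 22314 CTCF windows of the same length and in 25.0% of the promoters, and ACTACAA in 18.7% of the 3189 ZFP143 windows. These matches describe letters and not sites that were shown to be bound.

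The libraries held 9721568 to 16532077 counts in TT-seq, 10261851 to 15316700 in the RNA-seq time course and 13890761 to 27089033 in the RA experiment. As the tag acts on the protein, the Zfp143 transcript does not test the depletion, and it was 2.13- to 2.60-fold higher in all dTAG-V1 groups. The summed level of stem cell markers was lower late in depletion, though not that of each marker, and far lower with RA. Over depletion, the summed level of 6 stem cell markers (Pou5f1, Nanog, Klf4, Esrrb, Zfp42 and Tfcp2l1) was 4867 to 4971 CPM (counts scaled to library totals) in DMSO and 3616 to 3702 CPM at 72 h, while Klf4 alone was at 189 and 191 CPM in DMSO and at 206 and 209 CPM at 72 h. In the RA experiment it was 6005 to 6132 CPM in DMSO, 5180 to 5186 CPM in dTAG-V1, 602 to 914 CPM in DMSO with RA and 1175 to 1381 CPM in dTAG-V1 with RA. Cyp26a1 marked the RA response, with 0 counts in DMSO and 9833 with RA, at least 3207-fold higher.

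Without RA, Prph went from near silence to the highest CPM among the 9 genes. In DMSO it was at 1.10 and 0.926 CPM in replicates 1 and 2, which rested on 12 and 13 counts. It was at 4.04 and 4.38 CPM after 24 h, at 50.6 and 50.3 CPM after 48 h and at 94.0 and 98.1 CPM after 72 h. The groups did not overlap, and every later time stood above every earlier one. The log2 changes against DMSO were 2.05 ± 0.26 (SE), 5.64 ± 0.15 and 6.57 ± 0.13, which are 4.15-, 49.8- and 94.9-fold. Among the 13925 genes tested, Prph ranked 153 from the top at 24 h, 25 at 48 h and 19 at 72 h.

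Cdh4 went the same way from a lower level. It had 2 and 6 counts in DMSO (0.184 and 0.428 CPM) and was at 1.37 and 1.46 CPM after 24 h. After 48 h it was at 6.64 and 5.61 CPM, and after 72 h at 15.2 and 16.5 CPM. No groups overlapped. The log2 changes were 2.10 ± 0.48, 4.22 ± 0.34 and 5.59 ± 0.27, and they rest on the few counts in DMSO: at 72 h the change was 5.18 without DMSO replicate 1 and 6.36 without DMSO replicate 2.

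**Figure D1:**
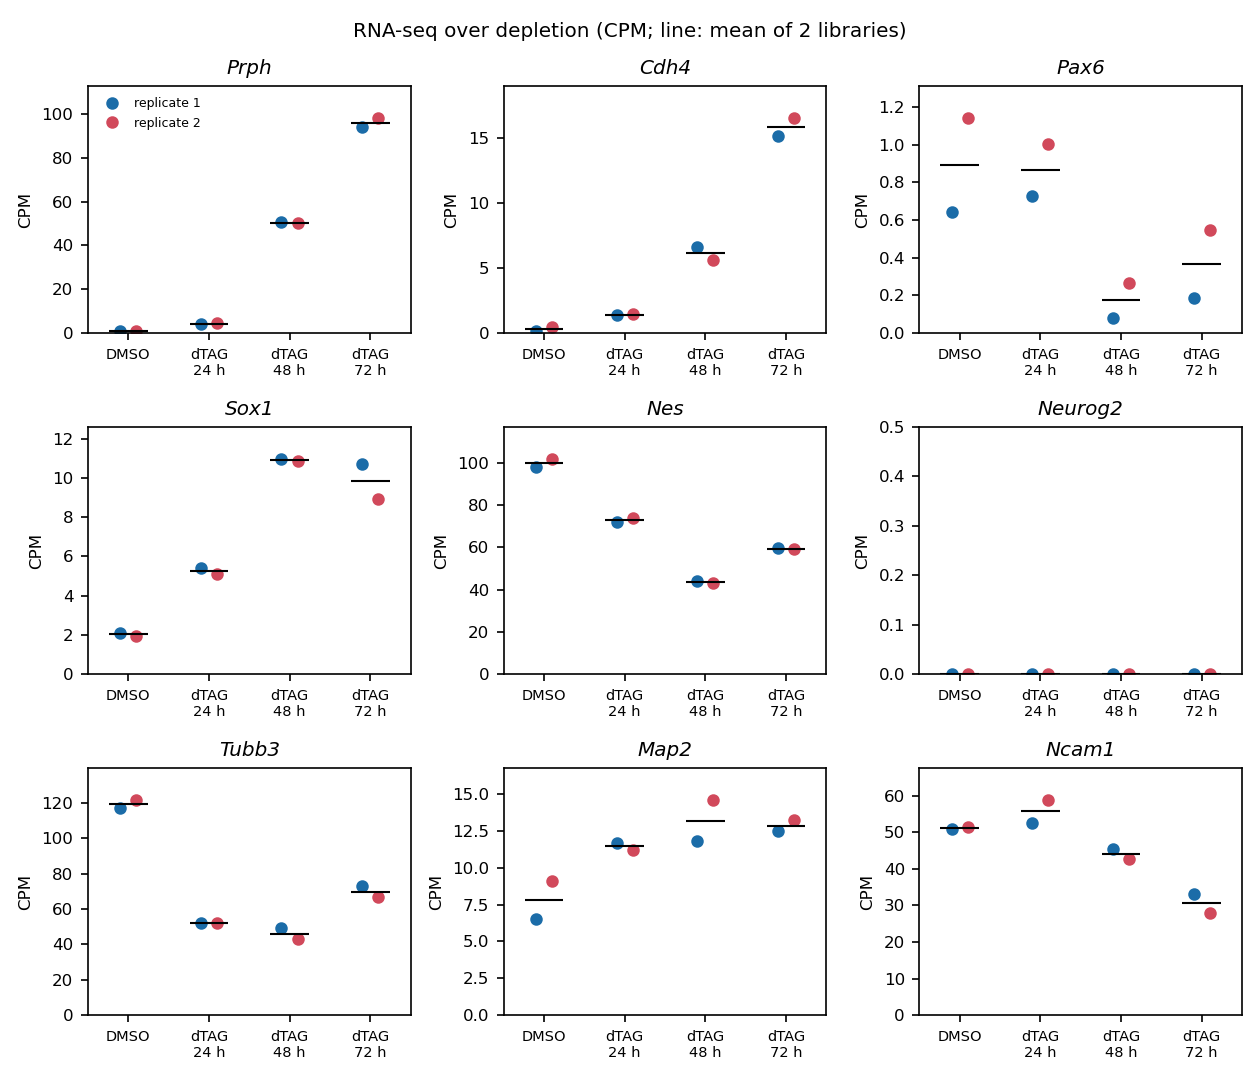
RNA-seq level in CPM (y axis, from 0, a scale of its own in each panel) of the 9 genes in DMSO and at the 3 times in dTAG-V1 (x axis), with 1 point for each library, coloured by replicate, and a line at the mean of 2 libraries. Prph and Cdh4 climbed at each time, Sox1 reached its higher level by 48 h, Nes and Tubb3 lay below DMSO at every time, and Neurog2 stayed at 0.

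The transcription factors of the set did not share this course. Sox1, which marks the earliest neural progenitors, was at 2.11 and 1.92 CPM in DMSO and at 5.41 and 5.11, 11.0 and 10.9, and 10.7 and 8.94 CPM after 24, 48 and 72 h. All treated libraries lay above both DMSO libraries, and 48 and 72 h differed little. Sox1 rose by 1.39 ± 0.23 on the log2 scale at 24 h (edgeR glmTreat against a 1.5-fold change, adjusted p = 0.0033), 2.44 ± 0.20 at 48 h (adjusted p = 1.29e-09) and 2.27 ± 0.20 at 72 h (adjusted p = 5.25e-09). The call at 24 h was lost when any 1 of the 4 libraries of that comparison was left out (glmTreat adjusted p between 0.0103 and 0.0489) and with DESeq2 (adjusted p = 0.221).

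Pax6, which specifies eye and forebrain progenitors, stayed too low to be tested. It had 7 and 16 counts in DMSO, 9 and 11 counts after 24 h, 1 and 3 counts after 48 h and 2 and 8 counts after 72 h. The ratio to DMSO was 0.928 at 24 h (95% counting interval 0.483 to 1.77), 0.183 at 48 h (0.0459 to 0.535) and 0.425 at 72 h (0.181 to 0.929), so its few counts were lower at the times when those of Sox1 were higher. Neurog2 had 0 counts in all 8 libraries, which allows up to 3 counts in each, and was not detectable at this depth.

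The cytoskeletal genes fell or stayed within the test's limit. Nes was at 98.3 and 102 CPM in DMSO, 72.1 and 74.0 CPM after 24 h, 43.9 and 43.3 CPM after 48 h and 59.7 and 59.1 CPM after 72 h. The groups were apart at each time, with the lowest values at 48 h. The log2 change was -0.45 ± 0.06 at 24 h (glmTreat adjusted p = 1), -1.20 ± 0.06 at 48 h (adjusted p = 2.15e-10) and -0.75 ± 0.06 at 72 h (adjusted p = 0.00303). Tubb3 was at 117 and 122 CPM in DMSO, 51.9 and 52.0 CPM after 24 h, 49.1 and 42.8 CPM after 48 h and 72.7 and 67.0 CPM after 72 h. It was called lower from 24 h on, with log2 changes of -1.20 ± 0.06 (adjusted p = 1.51e-09), -1.37 ± 0.07 (adjusted p = 4.78e-12) and -0.78 ± 0.06 (adjusted p = 0.00175). At 72 h the calls of Nes and Tubb3 were lost without DMSO replicate 2 (-0.73 and -0.75), without replicate 2 of the 72 h group (-0.76 and -0.73), with DESeq2 (-0.77 and -0.79) and when libraries were scaled by their totals alone (-0.54 and -0.56).

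Map2 and Ncam1 did not pass the test at any time. Map2 was at 6.52 and 9.12 CPM in DMSO, 11.7 and 11.2 CPM after 24 h, 11.8 and 14.6 CPM after 48 h and 12.5 and 13.2 CPM after 72 h, with log2 changes of 0.53, 0.73 and 0.70 (glmTreat adjusted p = 1, 0.23 and 0.238). All treated libraries lay above DMSO, but the 2 DMSO libraries differed from each other. Ncam1 was at 51.1 and 51.4 CPM in DMSO, 52.7 and 58.8 CPM after 24 h, 45.5 and 42.7 CPM after 48 h and 33.1 and 28.0 CPM after 72 h. Its log2 change at 72 h was -0.76 ± 0.08 (adjusted p = 0.0219), short of the threshold of 0.01.

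Of the 5 genes tested at these times, Sox1 was called higher and Tubb3 lower at 24 h, and Sox1 higher with Nes and Tubb3 lower at 48 and 72 h. Among all 13925 genes, 2.32% were called higher and 3.41% lower at 24 h, 10.5% higher and 7.71% lower at 48 h, and 13.7% higher and 12.0% lower at 72 h. The median log2 change of the 5 genes was 0.12, -0.21 and -0.75, against 0.02, 0.01 and 0.02 over all genes. Scaling by library totals alone put the median of all genes at 0.15 to 0.23 in these comparisons.

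The summed level of neuronal markers was below DMSO at 24 and 48 h, where Tubb3 alone among them was lower, and overlapped it at 72 h. Dcx, which marks young neurons, had 0 counts in all 8 libraries, Rbfox3 had 0 to 10 counts in each and Elavl3 8 to 26. The summed level of 6 neuronal markers, Tubb3 and Map2 among them, was 361 to 385 CPM in DMSO and 312 to 328 CPM at 24 h. It was 328 CPM in both libraries at 48 h and 369 to 392 CPM at 72 h. Stmn2, a regulator of microtubules, made up most of this sum but did not fall. It was at 237 and 254 CPM in DMSO, 263 and 247 CPM at 24 h, 265 and 269 CPM at 48 h and 305 and 287 CPM at 72 h. The summed level of 5 progenitor markers was 101 to 105 CPM in DMSO and 70.0 to 71.7 CPM at 72 h. Nes made up most of this sum, at 98.3 and 102 CPM in DMSO and 59.7 and 59.1 CPM at 72 h. Sox1 went the other way (above), as did Zic1, with 0 counts in DMSO and 12 and 21 counts at 72 h. Pax6 was low (above) and Hes5 had 0 to 5 counts. Summed levels of genes of other fates differed as well. In DMSO and at 72 h, 10 endoderm genes summed to 7.90 to 8.98 and 22.4 to 23.4 CPM. The sums of 11 mesoderm genes were 14.1 to 15.5 and 22.5 to 23.8 CPM, and those of 14 neural crest genes 80.7 to 88.6 and 46.5 to 47.5 CPM. Most of the neural crest sum in DMSO was Ngfr, called lower at a log2 change of -1.62 at 72 h, while 3 other genes of the list were called higher. The sums of 10 glial genes were 111 and 88.1 to 90.5 CPM, and those of 8 trophoblast genes 181 to 182 and 93.1 to 94.4 CPM. Of 3 mesoderm genes tested none was called at 72 h, and of 3 trophoblast genes tested 1 was called higher and 1 lower. The part of these other fates in the values of the 9 genes was not tested. In bulk RNA a change in the number of cells of a type and a change in RNA per cell cannot be told apart.

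TT-seq asked whether new RNA changed in the first hours and at 24 h. None of the 9 genes was called at any time in the fit without a block for the replicate number. Of the 9, 6 passed the filter on low counts, and among all 17870 genes 2.60%, 3.23% and 6.11% were called at 2, 6 and 24 h. At an unadjusted p under 0.05 there were 0, 1 and 1 of the 6 genes, Map2 at 6 h and Sox1 at 24 h, and DESeq2 called 0 at each time. The median log2 change of the 6 genes was 0.29, 0.07 and 0.21, against 0.01 over all genes at each time. With a block for the replicate number, Map2 was called higher at 6 h, and Sox1 higher and Tubb3 lower at 24 h (below).

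New Prph RNA was almost absent. Prph had 2 and 6 counts in DMSO, 1 and 3 counts at 2 h, 2 and 2 counts at 6 h and 2 and 6 counts at 24 h, and the ratio at 24 h was 0.977 with a counting interval of 0.320 to 2.99. Pax6 had 3 to 19 counts in each TT-seq library, with a ratio of 1.02 at 24 h (0.544 to 1.92), and Neurog2 had 0 to 2. Cdh4 was read well in TT-seq, where reads of the whole 457 kb gene were counted, but its replicates were far apart. It was at 14.6 and 44.3 CPM in DMSO, 16.0 and 21.6 CPM at 2 h, 18.2 and 20.7 CPM at 6 h and 25.2 and 85.9 CPM at 24 h, with replicate 2 high in DMSO and at 24 h. The groups overlapped, while at 24 h each replicate was above the DMSO library of the same number. Its log2 change at 24 h was 0.91 ± 0.58 (edgeR quasi-likelihood adjusted p = 0.408) and 0.88 ± 0.34 with the replicate number as a block (adjusted p = 0.113), called in neither fit. Leaving out 1 library, which breaks a pair, gave -0.23 to 1.95.

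The calls of Sox1, Tubb3 and Map2 in new RNA turned on how the replicates were modelled. Sox1 was at 0.931 and 1.30 CPM in DMSO and at 3.84 and 2.58 CPM at 24 h, with no overlap. The log2 change was 1.49 ± 0.48 (quasi-likelihood adjusted p = 0.114). Tubb3 was at 34.8 and 51.0 CPM in DMSO and at 12.8 and 39.9 CPM at 24 h, where the groups overlapped, with a log2 change of -0.69 ± 0.56 (adjusted p = 0.52). Leaving out 1 library gave -1.74 to -0.11 for Tubb3 and -1.62 to -0.28 for Nes at 24 h, none of them called. Replicates with the same number deviated together in TT-seq, and a block for the replicate number raised the genes called from 577 to 1315 at 6 h and from 1091 to 2223 at 24 h. In this fit both genes were called at 24 h, Sox1 at 1.44 (adjusted p = 0.0381) and Tubb3 at -0.84 (adjusted p = 0.0293). Map2 was then called higher at 6 h, at 0.82 (adjusted p = 0.0286), against an adjusted p of 0.25 without the block; its libraries were at 11.6 and 8.61 CPM in DMSO and 20.0 and 15.5 CPM at 6 h. Nes (log2 change -0.85 at 24 h, adjusted p = 0.289) and Ncam1 (0.01 at 24 h, adjusted p = 0.995) were called in neither fit.

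**Figure D2:**
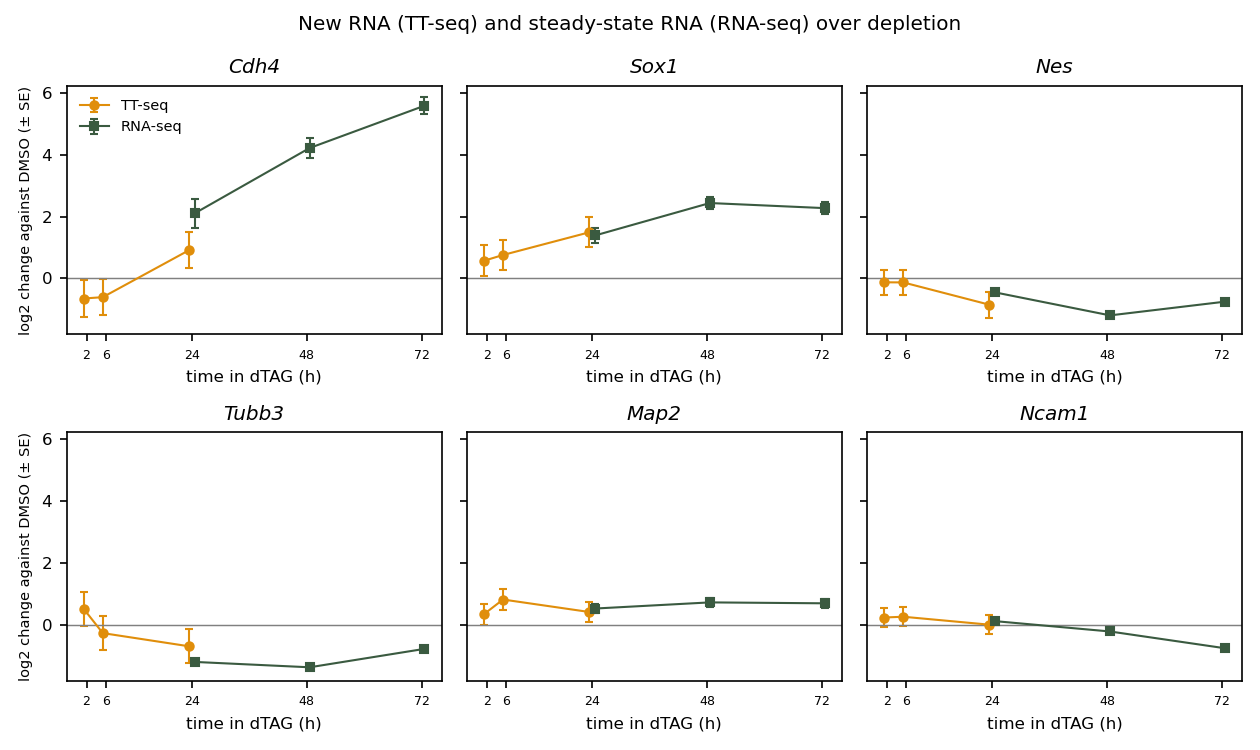
Log2 change against DMSO (y axis, points with bars of 1 SE) in TT-seq at 2, 6 and 24 h and in RNA-seq at 24, 48 and 72 h (x axis, hours in dTAG-V1) for the 6 genes that passed the filter in both tables. TT-seq bars are wide and include or come near 0 for most genes, with Sox1 at 1.49 and Tubb3 at -0.69 at 24 h, and the RNA-seq bars of Cdh4 are wide too, at 0.48 at 24 h.

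The RA experiment held its own 24 h depletion, from other libraries than the time course. Of the 8 genes that passed the filter, Tubb3 was called lower and none higher, where 3.66% and 2.74% of the 15915 genes were. Tubb3 was at 162 and 173 CPM in DMSO and at 78.2 and 70.1 CPM in dTAG-V1, a log2 change of -1.18 ± 0.08 (glmTreat adjusted p = 7.37e-07), beside -1.20 in the time course. Prph was at 5.04 and 7.91 CPM in DMSO and at 10.5 and 8.53 CPM in dTAG-V1. The 2 groups were next to each other without overlap, and the log2 change of 0.55 ± 0.18 was not called (adjusted p = 1), beside 2.05 at 24 h in the time course. The DMSO level of Prph was thus several CPM here and about 1 CPM there; the tables were normalised separately, so this difference was not tested.

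Cdh4 and Pax6 were at somewhat higher levels in dTAG-V1 without passing the test. Cdh4 was at 3.31 and 2.64 CPM in DMSO and at 5.14 and 5.22 CPM in dTAG-V1, a log2 change of 0.80 ± 0.22 (glmTreat adjusted p = 0.384). Pax6 was at 0.840 and 0.630 CPM against 1.77 and 1.12 CPM, a change of 0.92 ± 0.33 (adjusted p = 0.374). Sox1 was at 12.1 and 11.3 CPM against 15.3 and 17.4 CPM, and its change of 0.49 ± 0.12 was not called (adjusted p = 1). At 24 h in the time course the change of Sox1 was 1.39 and called, and that of Cdh4 was 2.10. The mean of Sox1 in DMSO was 11.7 CPM here and 2.02 CPM there, and that of Cdh4 2.97 and 0.306 CPM. These differences between the experiments were not tested. Nes (-0.54), Ncam1 (0.24) and Map2 (0.19) were not called either (adjusted p = 1 each).

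RA in control cells moved the set apart. Prph, Pax6 and Sox1 rose and Nes, Tubb3 and Ncam1 fell, 3 and 3 of 8 genes, where 25.8% and 18.1% of all genes were called higher and lower. The median log2 change was 0.55 over the 8 genes and 0.03 over all. Pax6 moved most, from 0.840 and 0.630 CPM to 49.1 and 54.6 CPM with RA, far from overlap. Its log2 change was 6.12 ± 0.19 (glmTreat adjusted p = 2.76e-16). Prph was at 88.1 and 110 CPM with RA, a rise of 3.94 ± 0.15 (adjusted p = 7.36e-15), and Sox1 at 26.9 and 29.9 CPM, a rise of 1.28 ± 0.12 (adjusted p = 2.57e-06).

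Tubb3, Nes and Ncam1 went down with RA. Tubb3 was at 9.23 and 10.4 CPM with RA in control cells and fell by 4.10 ± 0.10 on the log2 scale (glmTreat adjusted p = 9.59e-18). Nes was at 66.2 and 70.4 CPM before and 23.1 and 29.3 CPM after, a log2 change of -1.40 ± 0.11 (adjusted p = 6.14e-08). Ncam1 was at 74.1 and 78.4 CPM before and 29.5 and 40.7 CPM after, a log2 change of -1.13 ± 0.11 (adjusted p = 1.23e-05); this call was lost when libraries were scaled by their totals alone (-0.81, adjusted p = 0.0142), a scaling that put the median of all genes at 0.35 here. These are markers of neurons and progenitors, and 24 h in RA left each of the 3 below its stem cell level. Map2 (4.67 and 5.96 CPM to 7.55 and 9.62 CPM, log2 change 0.68, adjusted p = 0.242) and Cdh4 (3.31 and 2.64 CPM to 3.18 and 5.12 CPM, 0.43, adjusted p = 0.716) were not called.

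**Figure D3:**
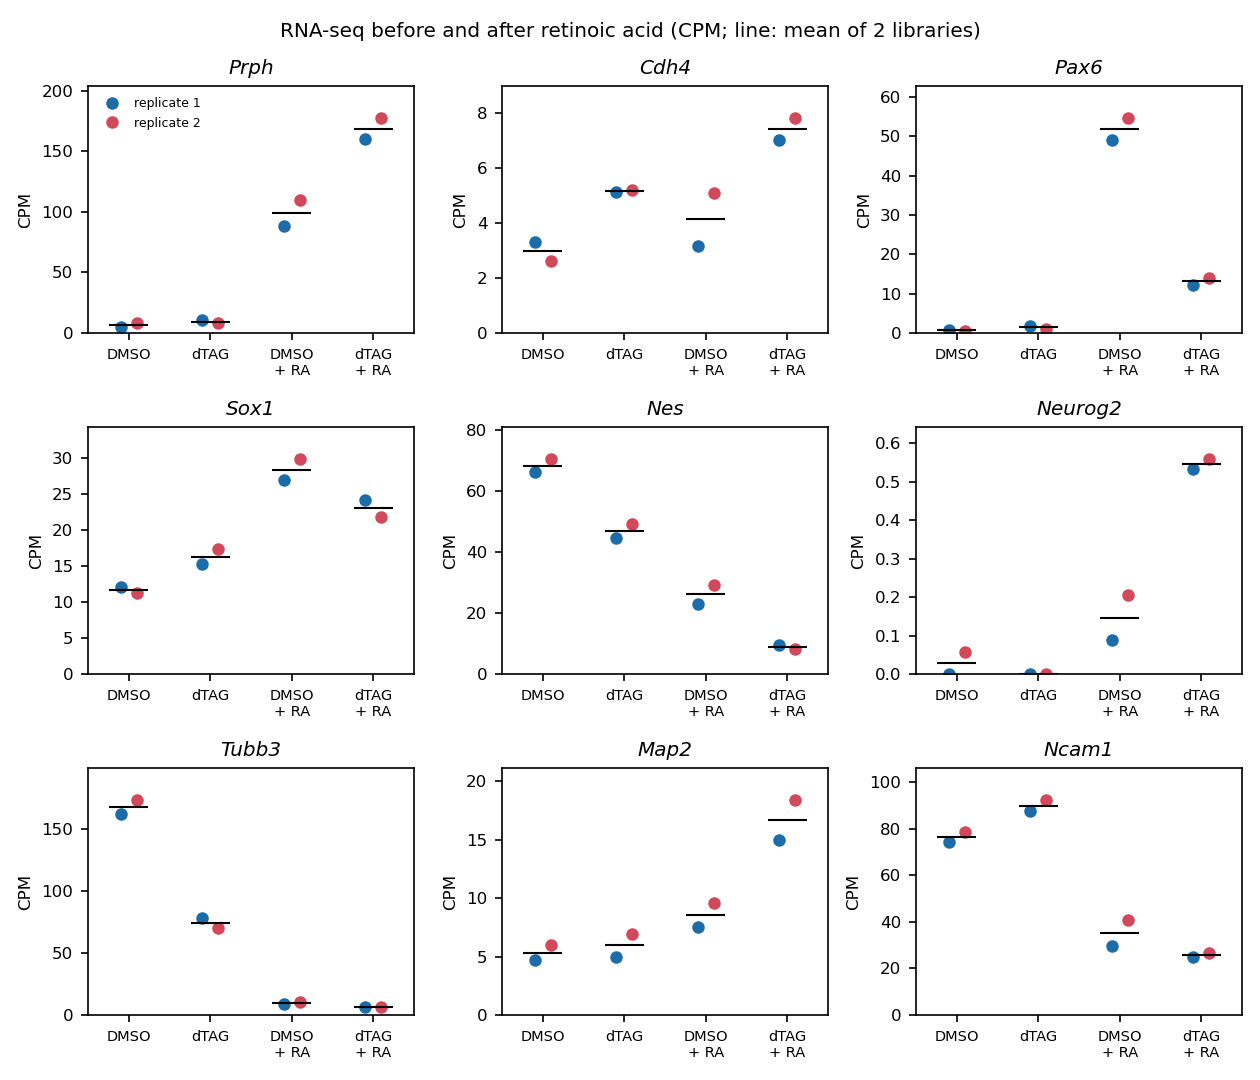
RNA-seq level in CPM (y axis, from 0, a scale of its own in each panel) of the 9 genes in DMSO, dTAG-V1, DMSO with RA and dTAG-V1 with RA (x axis), with 1 point for each library, coloured by replicate, and a line at the mean of 2 libraries. Pax6 reached 49.1 and 54.6 CPM with RA in DMSO but 12.3 and 14.1 CPM in dTAG-V1, while Prph reached 160 and 177 CPM in dTAG-V1 against 88.1 and 110 CPM.

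In depleted cells the response of Pax6 was much smaller. Pax6 was at 1.77 and 1.12 CPM before RA and at 12.3 and 14.1 CPM after it, a rise of 3.23 ± 0.19 on the log2 scale (glmTreat adjusted p = 1.44e-11). The RA effect thus differed from that in DMSO by -2.89 ± 0.35 on the log2 scale (interaction, quasi-likelihood adjusted p = 1.24e-06). Between the 2 groups with RA, Pax6 was lower in dTAG-V1 by a log2 change of -1.97 ± 0.12 (glmTreat adjusted p = 9.11e-10). Sox1 was at 15.3 and 17.4 CPM before RA and at 24.2 and 21.8 CPM after, a change of 0.49 ± 0.11 that was not called (adjusted p = 0.802), and its RA effect differed from that in DMSO by -0.79 ± 0.16 (quasi-likelihood adjusted p = 0.000528). With library totals alone as the scale, the rise of Sox1 in dTAG-V1 was called, at 0.88 (glmTreat adjusted p = 0.00391), with the median of all genes at 0.39.

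Nes and Ncam1 fell further in depleted cells. Nes was at 44.6 and 49.3 CPM before RA and at 9.48 and 8.19 CPM after, a log2 change of -2.41 ± 0.12 (glmTreat adjusted p = 2.57e-12), and its RA effect differed from that in DMSO by -1.01 ± 0.16 (quasi-likelihood adjusted p = 3.29e-05). Ncam1 was at 87.6 and 92.2 CPM before RA and at 25.1 and 26.6 CPM after, a log2 change of -1.80 ± 0.11 (adjusted p = 1.69e-10). Its RA effect differed from that in DMSO by -0.66 ± 0.15 (quasi-likelihood adjusted p = 0.00124), and by -0.43, under the size limit of 0.5, without replicate 2 of DMSO with RA. With RA, Nes was lower in dTAG-V1 than in DMSO by a log2 change of -1.55 ± 0.13 (glmTreat adjusted p = 2.99e-07), and Ncam1, at -0.43, was not called (adjusted p = 1).

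Tubb3 and Map2 differed the other way. Tubb3 was at 78.2 and 70.1 CPM in dTAG-V1 before RA and at 6.85 and 6.33 CPM after, a log2 change of -3.49 ± 0.10 (glmTreat adjusted p = 4.59e-16), a fall smaller than in DMSO by 0.61 ± 0.15 on the log2 scale (quasi-likelihood adjusted p = 0.00259). Its level with RA was nonetheless lower in dTAG-V1 (log2 change -0.57, glmTreat adjusted p = 0.763, not called). Map2 was at 4.99 and 6.98 CPM before RA and at 15.0 and 18.4 CPM after, a rise of 1.46 ± 0.17 (adjusted p = 1.3e-05), greater than in DMSO by 0.79 ± 0.26 (quasi-likelihood adjusted p = 0.0195). The difference for Map2 was no longer called without any 1 of 4 libraries, with adjusted p between 0.0602 and 0.117.

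Prph rose with RA in both kinds of cells, and no difference in the size of the rise was detected. It was at 10.5 and 8.53 CPM in dTAG-V1 before RA and at 160 and 177 CPM after, a rise of 4.16 ± 0.13 (glmTreat adjusted p = 8.24e-16), against 3.94 in DMSO. The difference of 0.22 ± 0.21 was not called (quasi-likelihood adjusted p = 0.423) and lay between -0.13 and 0.52 over the alternatives tried, which does not show that the responses are equal. With RA, both dTAG-V1 libraries lay above both DMSO libraries, a log2 change of 0.77 ± 0.11 that missed the threshold (glmTreat adjusted p = 0.0604). It was called without replicate 2 of DMSO with RA (0.94, adjusted p = 0.00578) and with library totals alone as the scale (0.98, adjusted p = 0.00125). Cdh4 was at 7.05 and 7.82 CPM in dTAG-V1 with RA and at 3.18 and 5.12 CPM in DMSO with RA. This log2 change of 0.89 ± 0.21 was not called (glmTreat adjusted p = 0.10). It was called without replicate 2 of DMSO with RA, at 1.22, and with the quasi-likelihood threshold (adjusted p = 0.000869). The RA effect of Cdh4 differed by 0.09 ± 0.31 (quasi-likelihood adjusted p = 0.84).

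Neurog2 stayed at the edge of detection. It had 0 and 1 counts in DMSO, 0 and 0 in dTAG-V1, 2 and 3 in DMSO with RA and 11 and 12 in dTAG-V1 with RA. The depleted libraries with RA stood above the rest, with a ratio to DMSO with RA of 4.08 (counting interval 1.52 to 13.7). Against dTAG-V1 without RA the ratio was 8.08 with 3 counts put in that group, and the counting interval began at 6.06.

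Of the 8 genes tested, dTAG-V1 with RA against DMSO with RA gave Pax6 and Nes lower and none higher, where 7.36% and 9.10% of all genes were called. RA in dTAG-V1 gave Prph, Pax6 and Map2 higher and Nes, Tubb3 and Ncam1 lower, where 25.0% and 18.5% were called. The RA effect differed in 6 of 8 genes, more positive in dTAG-V1 for 2 and more negative for 4 (the log2 change with RA in dTAG-V1 minus that in DMSO, whatever the direction of either), where 13.7% and 18.0% of all genes were called. The median of the 8 genes was -0.36, 0.50 and -0.29 in these 3 comparisons, against 0.00, 0.00 and -0.07 over all genes. As the depleted libraries with RA had been depleted for longer than those without, the difference in RA effect also holds the second day of depletion.

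**Figure D4:**
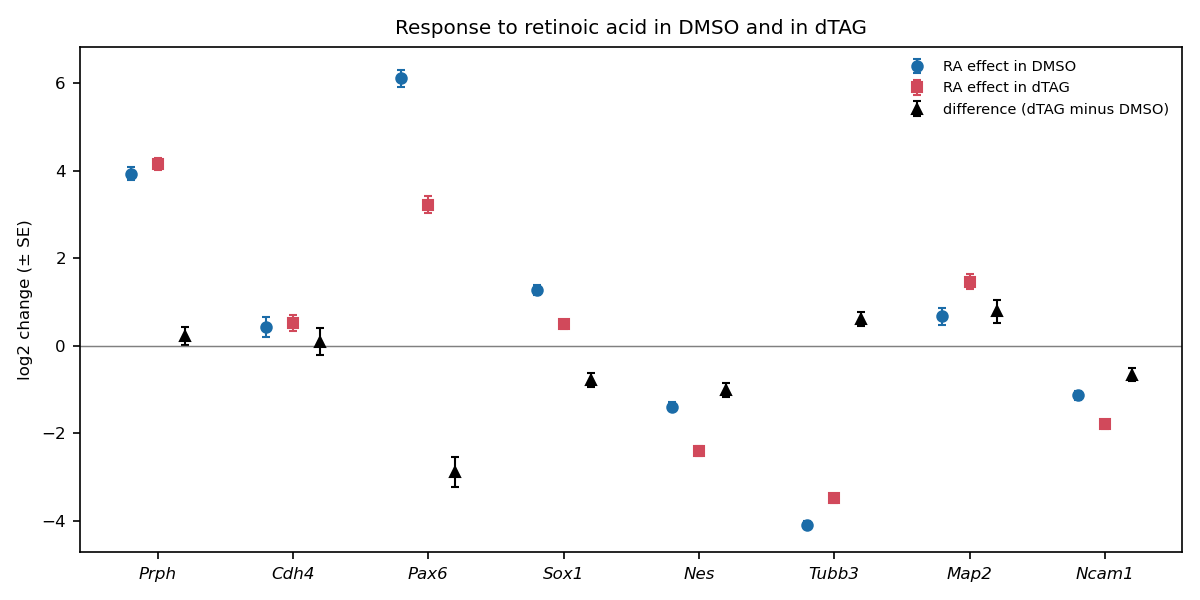
Log2 change with RA (y axis, points with bars of 1 SE) in DMSO, in dTAG-V1 and the difference between them (dTAG-V1 minus DMSO) for the 8 genes tested (x axis). Pax6 had the largest difference, at -2.89, and Prph and Cdh4 lie at 0.22 and 0.09, close to 0.

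The summed levels of progenitor and neuronal markers with RA were lower in dTAG-V1 than in DMSO, but single markers went both ways. The summed level of 5 progenitor markers was 103 to 118 CPM in DMSO with RA and 55.9 to 61.3 CPM in dTAG-V1 with RA, beside 79.4 to 82.6 and 62.3 to 68.2 CPM before RA. That of 6 neuronal markers was 632 to 699 CPM in DMSO, 506 to 520 CPM in dTAG-V1, 116 to 134 CPM in DMSO with RA and 57.0 to 59.5 CPM in dTAG-V1 with RA. Stmn2 made up most of the neuronal sum with RA in DMSO, at 112 and 91.4 CPM, and was at 28.9 and 23.3 CPM in dTAG-V1. Other markers were higher in dTAG-V1 with RA than in DMSO with RA: Map2 (above), Elavl3 (6.61 and 6.01 against 4.42 and 3.75 CPM), the neuronal splicing factor gene Rbfox3 (2.24 and 2.98 against 0.707 and 0.614 CPM) and, among progenitor markers, Zic1 (15.0 and 11.7 against 4.11 and 4.30 CPM). Of these, Rbfox3 (log2 change 1.96 ± 0.33, glmTreat adjusted p = 0.000524) and Zic1 (1.67 ± 0.18, adjusted p = 7.29e-06) were called in that comparison and Map2 (adjusted p = 0.0194) and Elavl3 (adjusted p = 0.597) were not. Dcx had 0 or 1 count in each library. Cyp26a1, the target of the RA receptors, was lower in dTAG-V1 with RA than in DMSO with RA by a log2 change of -2.18 ± 0.09 (glmTreat adjusted p = 4.11e-12), as Pax6 was. Of 14 pluripotency genes, 6 were called higher and 1 lower in that comparison, with a median log2 change of 0.89, and the log2 change with RA was more positive in dTAG-V1 for 10 and more negative for 1. Esrrb, a stem cell factor, was higher by 2.44 ± 0.15 (glmTreat adjusted p = 3.82e-10) and Klf4 by 1.38 ± 0.18 (adjusted p = 0.000167). Among other fates, 10 endoderm genes summed to 8.08 to 8.65 CPM in DMSO, 51.0 to 52.5 CPM in DMSO with RA and 69.6 to 70.1 CPM in dTAG-V1 with RA. Sums with RA in DMSO and in dTAG-V1 were 54.7 to 61.0 and 95.5 to 99.8 CPM for neural crest genes and 48.0 to 62.4 and 43.8 to 44.1 CPM for mesoderm genes. They were 22.3 to 30.0 and 39.3 to 45.1 CPM for trophoblast genes and 59.6 to 64.2 and 69.2 to 71.3 CPM for glial genes. The mesoderm sum did not follow its single genes. Of 9 tested, 3 were called higher and 1 lower in dTAG-V1 with RA than in DMSO with RA, with a median log2 change of 0.51. The part of these other fates in the values of the 9 genes was not tested.

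Per kilobase of exon, the order of the 9 genes turned over in both experiments. In DMSO of the time course the mean levels were 63.8 CPM per kb for Tubb3, 15.6 for Nes and 5.91 for Ncam1, followed by Prph, Map2 and Sox1 at 0.507, 0.476 and 0.418, where Map2 overlapped both Prph and Sox1 and those did not overlap each other. Pax6 and Cdh4 were at 0.0762 and 0.0421 CPM per kb. After 72 h Prph stood first at 48.0 CPM per kb, ahead of Tubb3 at 37.4 and Nes at 9.25, with Ncam1 at 3.53, Cdh4 at 2.18 and Sox1 at 2.03, and Cdh4 and Sox1 overlapped. Map2 and Pax6 were at 0.782 and 0.0312.

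In the RA experiment the order began in DMSO with Tubb3 at 89.7 CPM per kb, followed by Nes at 10.6, Ncam1 at 8.80, Prph at 3.24 and Sox1 at 2.42. With RA in DMSO it began with Prph at 49.6, followed by Sox1 at 5.88, Tubb3 at 5.26, Pax6 at 4.44, Nes at 4.08 and Ncam1 at 4.06, where Sox1 and Tubb3 overlapped, as did Pax6, Nes and Ncam1. With RA in dTAG-V1 it began with Prph at 84.5, Sox1 at 4.77 and Tubb3 at 3.53, which did not overlap. Prph thus held the highest level per length of the 9 genes after 72 h of depletion and after RA in both kinds of cells. Reads of genes that overlap may be shared. This touches Sox1 (with Sox1ot) and Tubb3 (with Gm20388, which runs through it on the same strand). It also touches Pax6 (with Pax6os1 on the other strand), Cdh4 (with Gm14300 on the other strand), Map2 and Ncam1. The strand setting of the RNA-seq counts is not given in the sources used here.

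ZFP143 peaks were far from most of the 9 genes. The Pax6 peak shown above had an enrichment of 6.54-fold over input and a -log10 q of 6.27. A peak that overlapped the window from 2000 bases upstream to 1000 bases downstream of a transcript start, with its centre within 2000 bases of it, was found for 1 of the 9 genes, Pax6, where 15.3% of 13816 tested protein-coding genes were bound by that rule. The nearest ZFP143 peak was 18.6 kb from a start of Prph, 16.7 kb from Nes, 50.7 kb from Ncam1, 107 kb from Sox1, 255 kb from Tubb3, 594 kb from Cdh4, 4125 kb from Neurog2 and 5321 kb from Map2. CTCF peaks were nearer except for Pax6 (2.52 kb), at 0.584 kb for Prph, 0.8 kb for Nes and 1.12 kb for Neurog2, and between 3.51 and 13.9 kb for Sox1, Tubb3, Cdh4 and Ncam1, with Map2 at 463 kb. The Cdh4 gene held 7 of them. The 2 peak lists used here do not compare treated with untreated cells, and changes in binding were not analysed here.

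**Figure D5:**
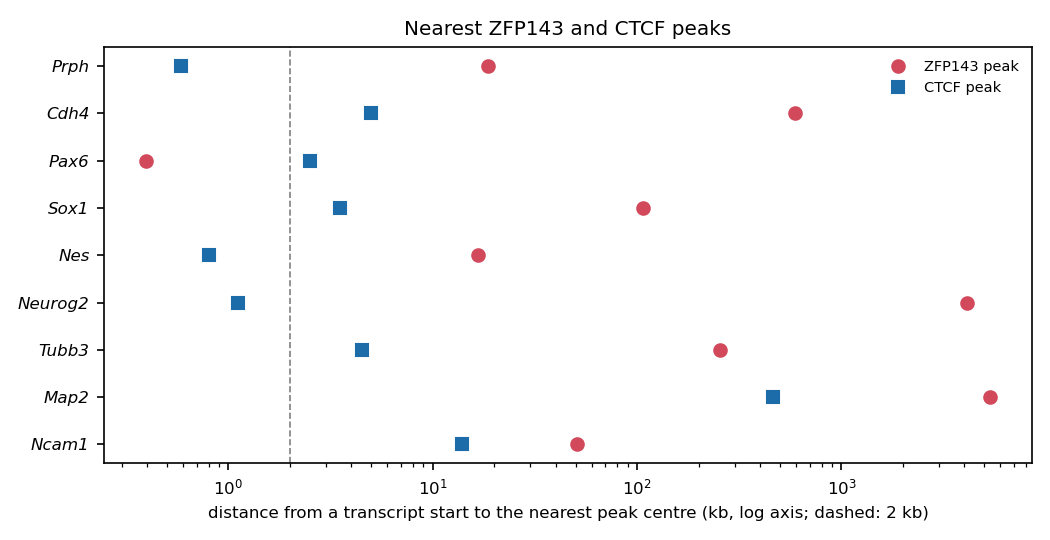
Distance from a transcript start to the nearest peak centre (x axis, kb, log axis, with a dashed line at 2 kb) of ZFP143 and CTCF for the 9 genes (y axis). Pax6, at 0.397 kb, is the one gene with a ZFP143 peak inside 2 kb, and Prph, Nes and Neurog2 have a CTCF peak inside it.

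The wider families of these genes were mixed in the time course, and their counts stand beside 10.5% of all genes called higher and 7.71% lower at 48 h, and 13.7% higher and 12.0% lower at 72 h. Several counts, such as 2 higher and 1 lower of 12 proneural and Notch genes at 48 h, lie near these shares. Genes near 0 in DMSO, such as Zic1, Dll1 and Ret, passed the filter only through the groups where they were high. Part of the counts of genes that rose was thus set by the filter, and they are a description. Of 24 further neural progenitor factors, 13 were tested: none was called at 24 h, 5 rose and 2 fell at 48 h, and 5 rose and 3 fell at 72 h, with medians of 0.21, 0.28 and 0.71. Zic1, a factor of the dorsal neural tube, had 0 counts in DMSO and 39 at 48 h, at least 13.7-fold higher, and Sox11, which acts in young neurons, rose by 4.15 ± 0.22 on the log2 scale at 72 h. Otx2, a factor of the anterior brain and of epiblast cells, fell by 1.49 ± 0.08 at 72 h, and Sox2, shared by stem cells and neural progenitors, fell by 1.03 ± 0.05. Of 12 proneural and Notch genes tested, none was called at 24 h, 2 rose and 1 fell at 48 h and 2 rose and 2 fell at 72 h, with medians of 0.21, 0.18 and -0.24. Those that rose were Neurod1 (3.92 ± 0.38 at 48 h) and the Notch ligand Dll1, which had 1 count in DMSO and 80 at 48 h (ratio 84.0, counting interval 14.7 to 3360), and Rest, a repressor of neuronal genes, fell by 1.00 ± 0.04 at 72 h.

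Structural genes of neurons and filaments gave counts in both directions. Of 19 neuronal structure genes tested, 1 fell at 24 h, 3 rose and 3 fell at 48 h and 3 rose and 4 fell at 72 h, with medians of 0.05, 0.12 and 0.27. Isl1, a factor of motor and sensory neurons, rose by 2.94 ± 0.40 at 48 h and the adhesion gene Nrcam by 2.55 ± 0.25, while Stmn3, a regulator of microtubules, fell by 2.02 ± 0.29. Of 14 other intermediate filament genes, the family of Prph and Nes, 1 fell at 24 h, 2 rose and 2 fell at 48 h and 3 rose and 4 fell at 72 h, with medians of -0.20, -0.33 and -0.02. The neurofilament genes Nefm and Nefl, partners of peripherin, rose by 4.36 ± 0.24 and 2.59 ± 0.12 at 72 h. The lamin gene Lmnb2 had log2 changes of -3.28 ± 0.08 at 24 h and -4.43 ± 0.10 at 72 h, and was called lower in TT-seq from 2 h on (log2 change -3.04 ± 0.28, quasi-likelihood adjusted p = 0.00104).

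Among 7 other classical cadherins tested, none was called at 24 h, 3 rose and 1 fell at 48 h and 4 rose and 1 fell at 72 h, with medians of 0.03, 0.86 and 2.05. Cdh2, the cadherin of neural tissue, rose by 3.01 ± 0.18 and Cdh10 by 3.05 ± 0.43 at 72 h, while Cdh3 fell by 2.54 ± 0.06. Of 8 neural crest genes tested, 1 fell at 24 h, 2 rose and 1 fell at 48 h, and 3 rose and 1 fell at 72 h. Ret, the receptor for a growth factor of peripheral neurons, had 2 counts in DMSO and 121 at 72 h (ratio 59.2, counting interval 16.0 to 494). The medians over all genes at the 3 times were 0.02, 0.01 and 0.02.

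With RA the same lists gave calls in both directions, beside 25.8% of all genes called higher and 18.1% lower in DMSO, 25.0% and 18.5% in dTAG-V1, and 13.7% and 18.0% for the difference in RA effect. Of 14 progenitor factors tested, 7 rose and 4 fell in DMSO and 6 rose and 3 fell in dTAG-V1, and the log2 change with RA was more positive in dTAG-V1 for 3 and more negative for 5. Emx2, a factor of the dorsal forebrain, went from 0 to 180 counts in DMSO (at least 58.7-fold) and from 0 to 76 in dTAG-V1 (at least 26.7-fold). Otx2 had log2 changes of -5.11 ± 0.28 in DMSO and -3.28 ± 0.18 in dTAG-V1, a difference of 1.83 ± 0.43 (quasi-likelihood adjusted p = 0.00163). Of 15 proneural and Notch genes, 4 rose and 6 fell in DMSO, 3 rose and 4 fell in dTAG-V1, and the RA effect differed upward for 3 and downward for 3, among them Neurod1 (3.31 ± 0.49) and Insm1 (-4.01 ± 0.86, which rests on 3 counts in DMSO without RA).

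Neuronal structure genes were counted in the same way. Of 21 tested, 5 rose and 6 fell with RA in DMSO and 7 rose and 9 fell in dTAG-V1, and the log2 change was more positive in dTAG-V1 for 1 and more negative for 10, which holds genes that fell further, with a median difference of -0.58 against -0.07 over all genes. Over all genes it was also more negative (18.0%) more often than more positive (13.7%). Mapt, which codes for the microtubule protein tau, was the 1 with a more positive change (0.71 ± 0.17), and the RNA-binding protein gene Elavl4 (-2.62 ± 0.34) and the motor neuron factor Mnx1 (-1.96 ± 0.36) had the most negative differences. Of 15 other intermediate filament genes, 5 rose and 7 fell with RA in DMSO and 5 rose and 5 fell in dTAG-V1, and the log2 change was more positive in dTAG-V1 for 6 and more negative for 4. Nefm, which had risen in the time course as Prph had, fell with RA where Prph rose, with log2 changes of -2.87 ± 0.15 in DMSO and -2.74 ± 0.15 in dTAG-V1, and Nefh was at -2.03 ± 0.11 in DMSO. Vimentin (Vim), the partner of nestin, was lower in dTAG-V1 with RA than in DMSO with RA by a log2 change of -2.15 ± 0.10. Of 8 cadherins, the log2 change with RA was more positive in dTAG-V1 for 2 and more negative for none, and of 12 neural crest genes more positive for 4 and more negative for 1. Genes near 0 without RA, such as Emx2, passed the filter only through the groups with RA. The lists were chosen with results of these data known, so the counts describe them.

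Genes whose course was most like that of a member were sought among 13782 genes by the Euclidean distance over 6 log2 changes against DMSO, 3 from each RNA-seq experiment. The nearest to Prph were Shisal1 (distance 1.88), Ret (2.24) and Apba1 (2.37), and the nearest to Cdh4 were 5430430B14Rik (0.930), Thsd7a (2.00) and Mn1 (2.11). The distances of Prph and Cdh4 include the changes by which both were chosen and are a description. Nearest to Ncam1 were Dpy30 (0.239), Tomm5 (0.284) and Aurka (0.300). Sox1 was nearest to Scrn1 (0.782), Nes to Tlcd1 (0.509) and Tubb3 to Xaf1 (1.04).

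No gene near Prph was called higher in the time course. Within 100 kb of its start, Tuba1c, Troap, C1ql4, Dnajc22 and Spats2 were tested in RNA-seq, with log2 changes between -1.08 and 0.29 at 24, 48 and 72 h. Tuba1c, an α-tubulin gene 25.3 kb upstream, had log2 changes of -0.77 at 48 h and -0.90 at 72 h, both called. With RA, C1ql4 rose by 3.34 in DMSO and 3.63 in dTAG-V1 and Dnajc22 by 1.23 and 1.12, while Tuba1c was at -1.11 and -2.20, all called. No gene within 100 kb of the start of Cdh4 passed the filter.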

How the data were processed

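TT-seq and RNA-seq were analysed from the deposited tables of raw read counts per gene, 8 libraries each. Per the labels and methods, the authors aligned reads to mm10 with STAR 2.7.9a, counted TT-seq reads over whole genes with HTSeq 0.13.5, where a read that overlaps 2 genes counts for both, and RNA-seq reads with STAR. The authors' ZFP143 peaks, called with MACS2, carry a fold enrichment (a ratio to input) and a −log10 q-value, while the CTCF list holds positions. Of 55401 genes, 55141 matched GENCODE vM21, used for symbols and positions. Genes above 10 counts in 4 or more of the 8 libraries were fitted in 1 model of 4 groups per table with TMM scaling (edgeR 4.0.16, limma 3.58.1, R 4.3.3): 17870, 13925 and 15915 genes, with a biological coefficient of variation of 17.2%, 3.65% and 5.92% in TT-seq, the time course and the RA experiment. The quasi-likelihood test served for TT-seq and for the interaction (RA effect in dTAG-V1 less the effect in DMSO), where a call needed an adjusted p below 0.05 with a log2 change beyond 0.5 in size. For the other RNA-seq contrasts glmTreat tested against 1.5-fold, with calls at adjusted p below 0.01. Adjustment was after Benjamini and Hochberg over all genes tested. The script was tested on simulated data. CPM use TMM-scaled library totals. For genes at 0 counts in a group the fold is a bound, taken with 3 counts in that group. The bound leaves out the counting error of the other group. Genes with few counts are given as a ratio with a 95% interval, which covers counting error alone.

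The 9 genes and all lists were chosen with earlier results of these data known. Genes named are the 9, from each list up to 2 called genes per direction and contrast with the largest change, the 3 genes nearest in pattern, neighbours within 100 kb of Prph and Cdh4, and Zfp143, Pou5f1, Nanog and Cyp26a1; single markers of stem cells, neurons and progenitors, Rest, Mapt, Klf4 and Rbfox3 among them, were named, after their values were seen, where a count or sum turned on them. Replicate numbers paired the TT-seq libraries: deviations from group means of libraries with the same number correlated at 0.19 to 0.63 in all 6 pairs of groups. The 4C, ATAC-seq and signal files were not analysed here. Alternatives were DESeq2 1.42.0, its size factors in edgeR, library totals alone, no filter, a replicate block, the quasi-likelihood threshold for RNA-seq, and each library left out.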

Additional observations from a re-analysis of the deposited data

Results flagged for a closer look

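The effect of RA differed between dTAG-V1 and DMSO cells, by the interaction test in edgeR, for 6 of the 8 genes tested. Depleted libraries with RA had been depleted for 48 h and those without RA for 24 h, so this difference also holds the second day of depletion. The difference in log2 change, dTAG-V1 minus DMSO, was -2.89 for Pax6 (quasi-likelihood adjusted p = 1.24e-06), -1.01 for Nes (adjusted p = 3.29e-05), -0.79 for Sox1 (adjusted p = 0.000528) and -0.66 for Ncam1 (adjusted p = 0.00124). It was 0.61 for Tubb3 (adjusted p = 0.00259) and 0.79 for Map2 (adjusted p = 0.0195). The call of Map2 was lost in several fits with 1 library left out. That of Ncam1 was lost without replicate 2 of DMSO with RA, at -0.43. Groups of 2 libraries are too small for the check of single libraries that stand apart.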

How the results depend on the processing

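No call of a gene turned its direction. In TT-seq, where no gene was called, the replicate block gave 1 at 6 h and 2 at 24 h, and no filter on low counts gave 4 at 24 h (Cdh4, Nes, Sox1 and Tubb3). In RNA-seq at 24 h the 2 calls became 1 with DESeq2, and the call of Sox1 was lost with any library left out. The quasi-likelihood threshold gave 3 calls at 24 h and 4 at 48 h, adding Map2 each time. At 72 h the 3 calls became 1 with DESeq2, 1 with library totals alone and 5 with the quasi-likelihood threshold, and 1 to 4 when a library was left out. For dTAG-V1 before RA the quasi-likelihood threshold gave 5 calls (Prph, Cdh4, Pax6, Nes and Tubb3) against 1. For dTAG-V1 with RA the 2 calls became 4 with library totals alone, 6 with the quasi-likelihood threshold and 2 to 5 with a library left out. The cause was not tested; the quasi-likelihood threshold loosens both the adjusted p limit and the size of change tested against. A group left with 1 library was assumed to vary like the other groups. Replicate numbers did not pair the RNA-seq libraries (correlations of -0.04 to 0.06 in the time course and -0.10 to 0.13 in the RA experiment); the block added Map2 to the calls for dTAG-V1 with RA (log2 change 0.96, adjusted p = 0.00719) and changed no other call there. Among all genes in the time course, 798, 2529 and 3589 were called at 24, 48 and 72 h, against 437, 1509 and 2279 with DESeq2 and 2778, 5296 and 6464 with the quasi-likelihood threshold. For dTAG-V1 before and with RA, 1019 and 2620 genes were called, against 617 and 1554 with DESeq2 and 3644 and 6299 with that threshold. In TT-seq the replicate block raised the count from 465 to 749 at 2 h, from 577 to 1315 at 6 h and from 1091 to 2223 at 24 h. Without a filter the counts were 936, 1318 and 2203, and with 1 library left out they were as low as 113, 118 and 467. Depth limited Neurog2 in every table, Prph in TT-seq and Pax6 in TT-seq and the time course.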
